A study of Mus musculus with 4 samples.

Results

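Trim43a, Trim43b and Trim43c are close copies of a tripartite motif gene of the mouse. They were taken here as the probe sets whose single gene symbol in the platform annotation is one of these names. The rule found 3 probe sets, 1 for each copy, among 23521 probe sets with 1 symbol and 41345 in all. No probe set with several symbols named a Trim43 gene (0 of 1814). The copies were chosen by the Trim43c values themselves, which were already known to differ between genotypes on both days, so every value of these probe sets is a description and carries no test.

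TRIM proteins join a RING finger, B-box zinc fingers and a coiled coil, and many act as E3 ubiquitin ligases. The Trim43 copies are known from cleavage-stage mouse embryos, before implantation. Human TRIM43 is a target of the embryonic transcription factor DUX4 and restricts herpesviruses. Embryonic stem cells come from the later inner cell mass, and a few of them at a time enter a 2-cell-like state in which cleavage-stage genes are switched on.

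The study measured total RNA of E14tg2a cells, a feeder-independent mouse embryonic stem cell line, on 4 GeneAtlas arrays. The cells were grown in serum with LIF and were wild type (WT) or double knockout for Ctbp1 and Ctbp2 (DKO), a pair of corepressors that are recruited by DNA-binding repressors. Both genotypes were taken at d0 and at d2, read here as days 0 and 2 of overexpression of PRDM14, a nuclear protein that sustains naive pluripotency. How overexpression was driven, which part of each Ctbp gene was deleted and whether the DKO cells were 1 clone are not given in the sources used here. There was 1 array per group, so no difference has an error, and precision is limited by how few arrays there are. No array was labelled d2 without overexpression, so PRDM14 and time in culture cannot be told apart.

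Before the copies are read, 3 facts of the whole table bear on them. Values are RMA output taken as log2, on which a difference of 1 is 2-fold. Array medians lay between 0.35 and 0.41, and a value under 0.30, the 40th percentile of all values, is not shown to be above background. The DKO d2 array stood apart, with a Pearson correlation of 0.727 with each other array across probe sets, where WT d0 and DKO d0 reached 0.832 with each other. The 8 embryonic stem cell markers, Pou5f1, Sox2, Nanog, Zfp42, Esrrb, Dppa5a, Tdgf1 and Utf1, lay between -0.04 and 1.23 over the arrays, with medians of 0.54 and 0.56 in WT and 0.56 and 0.44 in DKO, d0 before d2. The labelled cell type could therefore not be read clearly from its own markers. Their summed level was 4.36, 4.33, 4.81 and 2.69 on the arrays in that order, and its part in the values below was not tested. Ctbp1, Ctbp2 and Prdm14 lay between 0.24 and 0.68 on all arrays, so neither knockout nor overexpression could be read from these probe sets, and a probe set outside a deleted part checks nothing. WT, DKO, d0 and d2 stand for arrays labelled so.

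The copies did not show the same pattern. Trim43c (probe set 17520146) was lower in DKO than in WT on both days, with a difference of -1.98 at d0 and -2.22 at d2. Trim43a and Trim43b differed by no more than 2-fold either way, between -0.33 and 0.14. Trim43c was also lower at d2 than at d0 in each genotype, but by less than 2-fold. The values of Trim43a and Trim43b lay at or near the level where signal is not shown to be above background.

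Trim43c measured 4.48 and 3.73 in WT and 2.49 and 1.51 in DKO, d0 before d2 in each genotype. Both WT values were above both DKO values, and within each genotype the d0 value was the higher. All 4 values were above 0.30, and they stood at percentiles 99.2, 98.8, 97.8 and 94.8 of all probe sets of their arrays. A high value does not by itself show that the transcript was present. Probe sets with a mean above 2 over the arrays included those of the olfactory receptor gene Olfr503 as well as of Gapdh. The groups thus ranked, from high to low, as WT at d0, WT at d2, DKO at d0 and DKO at d2. Without replicates it cannot be said whether neighbours in that ranking differ beyond the spread between cultures. Even if the probe set reads its transcript, fewer cells with it and less of it per cell cannot be told apart in these bulk cultures.

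Trim43a (probe set 17520101) measured 0.41 and 0.27 in WT and 0.55 and 0.41 in DKO, again d0 before d2. These values stood at percentiles 57.2, 36.0, 71.1 and 49.3, around the middle of each array, and WT d2 was below 0.30. The WT and DKO ranges overlapped.

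Trim43b (probe set 17529617) measured 0.40 and -0.04 in WT and 0.07 and 0.07 in DKO. WT d0 was the highest and WT d2 the lowest, and 3 of the 4 values were below 0.30, at percentile 6.33 for WT d2 and at 13.3 and 10.5 for DKO. Both DKO values were identical to the last deposited digit, and the same number was held by 13 probe sets on DKO d0 and by 22 on DKO d2. Of all 41345 probe sets, 118 had equal values on these arrays.

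**Figure D1:**
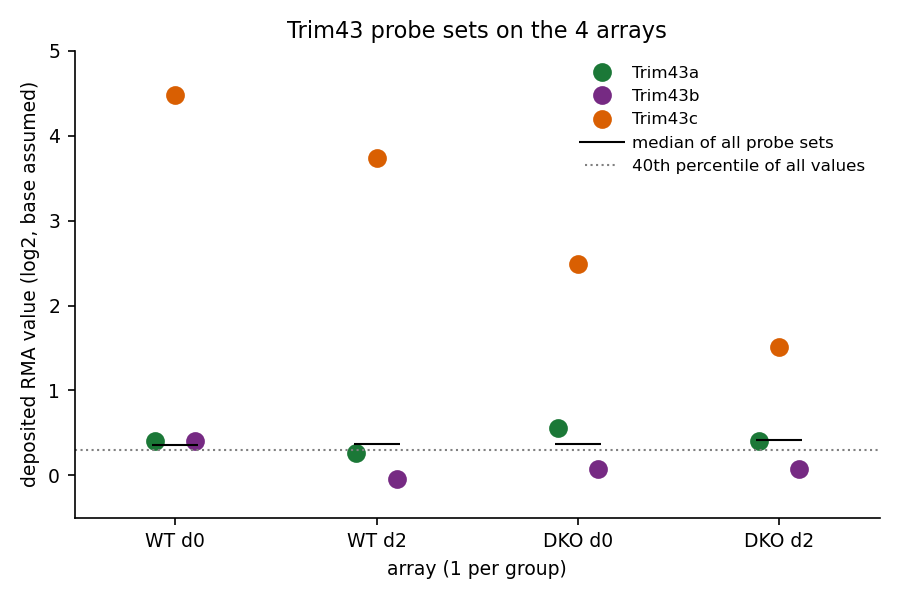
Deposited RMA value (log2, base assumed) of each Trim43 probe set on each of the 4 arrays; points are single arrays, the black bars are array medians and the dotted line is the 40th percentile of all values (0.30). Trim43c goes from 4.48 on WT d0 to 1.51 on DKO d2, while Trim43a and Trim43b lie close to the medians or below them.

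A probe set's level is set partly by how well its probes bind, so the copies cannot be ranked by abundance from these values. Probe sequences were not used here, and how many probes the 3 sets share is not known. Where probes are shared, signal from one copy can enter the value of another, and each probe set is therefore uncertain as a measure of its own copy. The low values of Trim43a and Trim43b do not show that these copies were silent or that they stayed the same.

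Knockout was set against wild type on d0 first, the comparison that does not use the DKO d2 array. DKO minus WT was -1.98 for Trim43c, a 3.95-fold difference if the base is 2. It was the 1 copy of 3 lower by at least 2-fold, where 42 of 23521 probe sets with 1 symbol (0.179%) were. Since this contrast chose the gene, nothing is read from that count. The Trim43c difference was the 3rd lowest of the 23521. Bright probe sets passed 2-fold more often: of the 230 with a mean above 2 over the arrays, 8 (3.48%) were lower and 8 (3.48%) higher, and 2 of the 230 lay at or below the Trim43c difference, itself included. Trim43a differed by 0.14 and Trim43b by -0.33, against a median over all 23521 of 0.01 and a robust SD of 0.23.

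At d2, DKO minus WT was -2.22 for Trim43c, a 4.66-fold difference if the base is 2. The d0 and d2 comparisons share no array, and this one cannot be made without DKO d2. They may set the same DKO cells against the same WT cells, so they are not shown to be separate observations of the genotype. It was again the 1 copy of 3 past 2-fold, where 88 of 23521 (0.374%) were lower, and its difference was the 6th lowest. Among the 230 bright probe sets 29 (12.6%) were lower by at least 2-fold at d2 and 6 lay at or below Trim43c, itself included. Differences of this size were thus less rare in the comparison that uses the DKO d2 array. Trim43a differed by 0.14, as at d0, and Trim43b by 0.11. Trim43b thus had opposite signs on the 2 days, with 3 of its 4 values under 0.30.

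Few other probe sets were lower in DKO by at least 2-fold on both days. Besides Trim43c they were those of Calm5, a calmodulin-like gene, and of the microRNA genes Mirlet7a-1 and Mir328, all named after their values were seen. These 4 made up 9.52% of the 42 lower at d0 and 4.55% of the 88 lower at d2. All 4 had a mean above 2. Of all such probe sets 12.6% were lower at d2 and 3.48% at d0, against 0.374% and 0.179% of the 23521. Trim43c was chosen for its difference, so nothing is read from the overlap. DKO minus WT was -1.29 at d0 and -1.003 at d2 for Calm5. For Mirlet7a-1, of the let-7 family, it was -1.17 and -1.82, and for Mir328 -2.13 and -2.91. No probe set with 1 symbol was higher in DKO by 2-fold on both days (0 of 23521); there was no test, and so no count at an unadjusted p.

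**Figure D2:**
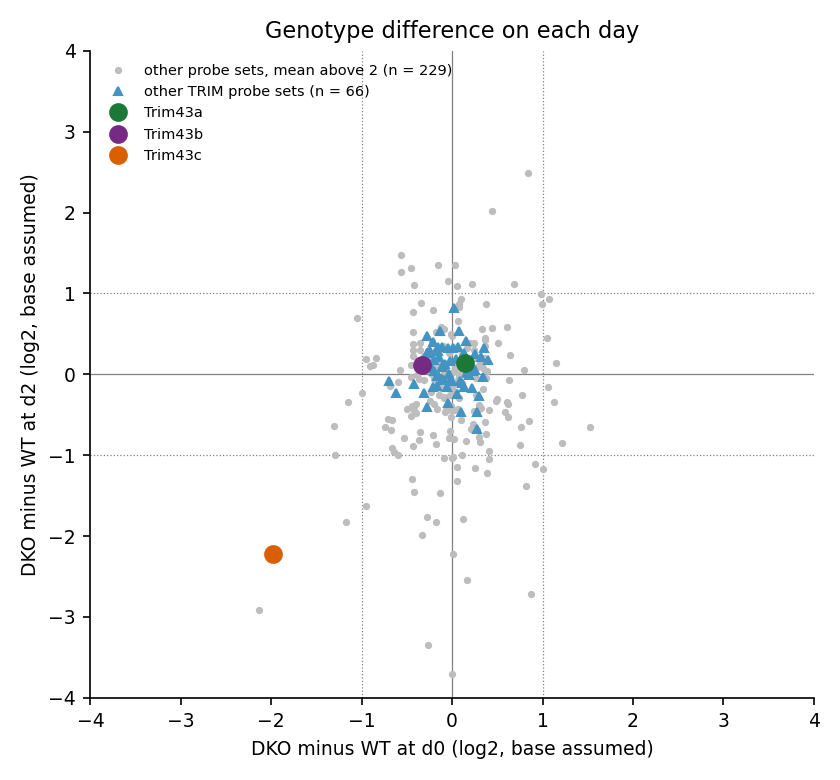
DKO minus WT (log2, base assumed) at d0 on the horizontal axis and at d2 on the vertical axis, for the 3 Trim43 probe sets, 66 probe sets of other TRIM genes and 229 other probe sets with a mean above 2; dotted lines mark 2-fold. Trim43c lies at -1.98 and -2.22, next to a single grey point further out, Mir328, while Trim43a, Trim43b and the other TRIM probe sets lie within 2-fold on both days.

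Within genotypes no copy passed 2-fold between the days. In WT, d2 minus d0 was -0.74 for Trim43c, -0.14 for Trim43a and -0.44 for Trim43b, where 33 of 23521 probe sets (0.140%) were lower by at least 2-fold. The Trim43c difference was the 131st lowest, and 10 of the 230 bright probe sets lay at or below it, itself included. In DKO, d2 minus d0 was -0.98 for Trim43c, just inside 2-fold, -0.15 for Trim43a and 0 for Trim43b. There 78 of 23521 (0.332%) were lower by at least 2-fold. Of the 230 bright probe sets 27 lay at or below Trim43c in DKO, itself included, so a fall of this size was less rare among them. With the array medians set equal the DKO difference of Trim43c was -1.03, and after quantile normalization -1.06, both past 2-fold. The d2 change in DKO minus that in WT was -0.24 for Trim43c (-0.34 to -0.22 over the scalings), -0.0038 for Trim43a and 0.44 for Trim43b, against a robust SD of 0.34 over all probe sets. Trim43b thus lay beyond that SD, with 3 of its values below 0.30. These comparisons reuse the arrays of the genotype comparisons and are no separate observations. Over the 4 arrays the Trim43c values spanned 2.96, the 5th widest span of the 23521 probe sets and also of the 230 bright ones, whose median span was 0.72. The spans of Trim43a and Trim43b were 0.29 and 0.44, against a median of 0.34 over all.

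The rest of the TRIM family was then read in the same way. It held 66 probe sets of 61 genes other than the Trim43 copies, and 0 of 66 passed 2-fold in DKO against WT at d0 (background 0.336% either way), at d2 (0.855%), or between days in WT (0.310%) or DKO (0.876%). No test was run on these counts. The median difference was -0.03 at d0 and 0.09 at d2, against 0.01 and 0.04 over all probe sets. Most TRIM probe sets had low values: 5 of 66 exceeded 1 on any array, and the family spanned -0.36 to 1.61.

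Trim54, a muscle TRIM protein, had the probe set with the highest mean of the family, at 1.61 and 1.57 in WT, and DKO minus WT was -0.09 at d0 and -0.08 at d2. Its other probe set measured 0.19 and 0.50 in WT, with differences of 0.29 and -0.27. Trim71, a stem cell RNA-binding TRIM protein, measured 0.68 and 0.72 in WT and 0.92 and 0.77 in DKO, and Trim28, the KAP1 corepressor of retroelements, 0.32 and 0.26 in WT and 0.57 and 0.31 in DKO. Neither differed by 2-fold in any of these comparisons. The largest genotype differences of the family were those of Trim32, a muscle and neural ubiquitin ligase, at d0 (-0.70) and of Trim10, an erythroid gene, at d2 (0.82). These 5 TRIM genes were named after their values were seen.

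The Trim43 copies lie in order a, c, b on chromosome 9 of the RefSeq gene table of GRCm38.p6, within a stretch of 24 listed genes that also holds copies of Mthfs and of Bcl2a1. No coordinates are taken from that table. The other 12 genes with a probe set of their own between Syncrip and Tmed3 lay between -0.20 and 1.27, and their highest WT value was 0.75. At such levels a fall of the size seen for Trim43c could not show, so their differences do not say whether they shared it. The lncRNA gene 9330159M07Rik overlaps Trim43c in the table and measured 0.65 and 0.53 in WT and 1.27 and 0.73 in DKO. Its difference between genotypes was 0.62 at d0 and 0.19 at d2, opposite in sign to Trim43c. Mthfsl, on the other side, differed by -0.18 and 0.20, and Bcl2a1a, a BCL2 family survival gene, by 0.11 and -0.59. Next to Trim43a, the zinc finger gene Zfp949 differed by 0.04 and 0.06 and the lncRNA gene 9430037G07Rik by -0.60 and 0.53. Further out, Syncrip, an RNA-binding protein gene, differed by 0.22 and 0.21 and Snhg5, a host gene of small nucleolar RNAs, by -0.24 and -0.34. Beyond Trim43b, Mthfs, an enzyme of folate metabolism, differed by 0.55 and -0.20, Minar1 by 0.16 and 0.14, and Tmed3, a cargo receptor gene of the secretory pathway, by 0.01 and 0.07. Trim43c, chosen for its difference, was the 1 probe set of these 13 past 2-fold on either day, and also the 1 with a WT value of 1 or more.

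**Figure D3:**
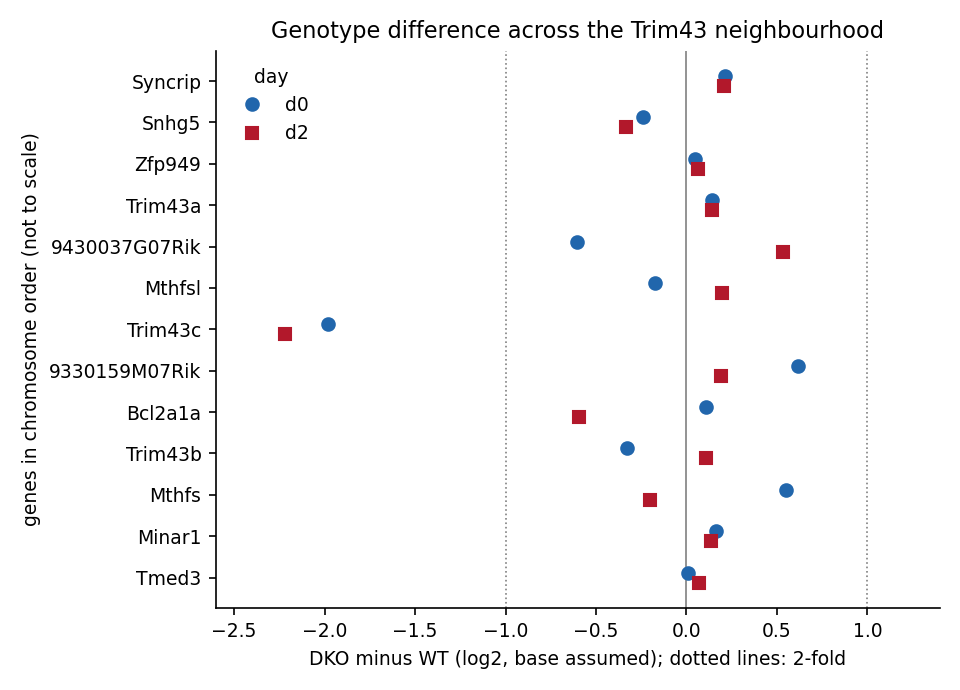
DKO minus WT (log2, base assumed) at d0 (circles) and d2 (squares) for the 13 genes with a single-symbol probe set from Syncrip to Tmed3, in chromosome order and not to scale; dotted lines mark 2-fold. Trim43c, at -1.98 and -2.22, lies outside the dotted lines, and the other 12, whose WT values were at most 0.75, lie within them.

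Profiles over the 4 arrays were compared by the root mean square difference after each probe set's own mean was subtracted. The 5 nearest to Trim43c among probe sets of other genes were those of Ighm (0.43), Mir328 (0.46), Mirlet7a-1 (0.47), Serpina3i (0.52) and Gm2102 (0.58), where the median distance over all was 1.16. Ighm, the constant region of the immunoglobulin mu chain, measured 4.73 and 4.35 in WT and 3.78 and 2.73 in DKO. It ranked the groups as Trim43c did, and DKO minus WT was -0.95 at d0 and -1.62 at d2.

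Mir328 measured 5.05 and 3.81 in WT and 2.92 and 0.89 in DKO, and Mirlet7a-1 4.70 and 4.86 in WT and 3.53 and 3.04 in DKO. Mirlet7a-1 was the higher at d2 in WT, unlike Trim43c. Serpina3i, of a serine protease inhibitor cluster, measured 1.57 and 0.44 in WT and 0.15 and -0.41 in DKO, so its values other than WT d0 lay near or below the 0.30 of the 40th percentile. The predicted gene Gm2102 measured 1.99 and 1.62 in WT and 1.29 and 0.38 in DKO. With 4 arrays a near profile can arise from any source of difference between them, and nothing is said here of shared control.

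**Figure D4:**
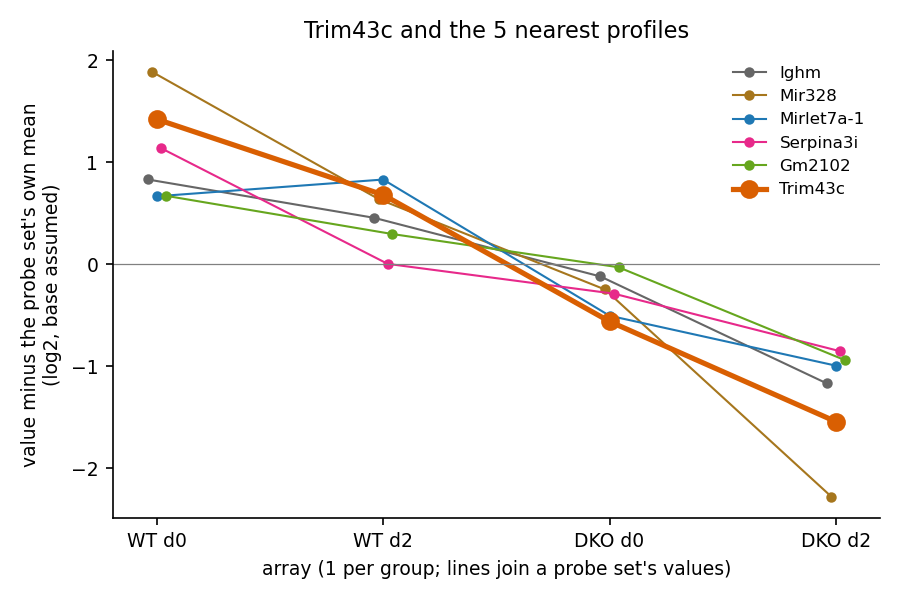
Value minus the probe set's own mean over the 4 arrays (log2, base assumed) for Trim43c (thick line) and the 5 probe sets nearest to it; lines join the single arrays of a probe set. All 6 are lowest on DKO d2, and Mirlet7a-1 alone is higher on WT d2 than on WT d0.

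Other genes of the early embryo were read from the lists. Of 27 probe sets of 2-cell-like genes, 2 passed 2-fold upward at d0 (background 0.157%) and 0 downward, and at d2 0 of 27 passed (background 0.480% upward). Those upward were Tmem92, at 0.05 on WT d0 and 2.14 on DKO d0, and Tcstv3, at 0.07 and 1.68, opposite in direction to Trim43c. On d2 they differed by 0.07 and -0.72. Between days, Tmem92 and Tcstv3 were the 2 of 27 lower at d2 in DKO by 2-fold (background 0.332%), with differences of -1.49 and -1.68. These differences reuse their high DKO d0 values and are no separate observations. Usp17la (1.51) was the 1 higher in WT, where 40 of all 23521 probe sets were. Zscan4c (1.03) was the 1 higher in DKO, where 128 of the 23521 were. It was the nearest to 2-fold of the 3 that passed between days in DKO. With equal medians, quantile normalization or cyclic loess 2 of the 27 passed there. The list's median difference was 0.04 at d0 and 0.06 at d2, close to the 0.01 and 0.04 of all probe sets. Of 25 probe sets of oocyte and cleavage genes, 0 passed 2-fold between genotypes at d0 (background 0.336% either way) or d2 (0.855%). Dppa3 (Stella), a maternal factor that protects methylation, had the highest mean and measured 2.00 and 1.72 in WT and 1.52 and 1.81 in DKO. Obox2 had the next highest mean and measured 1.25 and 1.08 in WT and 1.25 and 2.03 in DKO. Its DKO minus WT was 0.01 at d0 and 0.95 at d2, opposite in sign to Trim43c. Zar1, a maternal RNA regulator, measured 1.13 and 0.79 in WT and 1.73 and 0.48 in DKO, and H1f8, the oocyte linker histone, 0.63 and 1.34 in WT and 1.45 and 1.05 in DKO. Zar1 was the 1 of 25 past 2-fold between days, lower at d2 in DKO (-1.25). Over all probe sets with 1 symbol, 0.310% passed between days in WT and 0.876% in DKO.

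Of 21 probe sets of pluripotency genes 0 passed 2-fold between genotypes at d0 (background 0.336% either way) or d2 (0.855%). Among them Lin28a, an inhibitor of let-7 processing, measured 0.39 and 0.85 in WT and 0.77 and 1.60 in DKO. Between days 1 of the 21 passed (background 0.310% in WT and 0.876% in DKO). It was Dppa5a, a naive pluripotency marker, lower at d2 in DKO (-1.22). Of 12 probe sets of trophectoderm genes 0 passed between genotypes, against the same backgrounds. The keratin gene Krt8 measured 0.90 and 1.14 in WT and 1.11 and 1.56 in DKO. None of the 12 trophectoderm probe sets passed between days (0 of 12), again against the same backgrounds. No test was run on these counts, and in lists this short nothing is read from them. Values this close to background do not show that the genes stayed the same.

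Other multicopy families were read for how far their copies differ. A value above 1 on at least 1 array was reached by 1 of 3 Trim43 probe sets, 2 of 7 Tdpoz, 2 of 5 Usp17l, 2 of 5 Zscan4, 1 of 6 Obox and 2 of 2 Tcstv probe sets, where 2764 of 23521 probe sets with 1 symbol (11.8%) did. With so few probe sets per family nothing is read from these counts. These families were chosen after their values were seen. The Tdpoz genes encode TD and POZ domain proteins of the early embryo. Tdpoz2 had a pair of probe sets, 1 of which measured 4.53 and 4.19 in WT and 4.14 and 3.82 in DKO. The other measured 0.35 and 0.14 in WT and 0.20 and 0.62 in DKO. Probe sets annotated to a single gene can thus read as unlike in level as those of the Trim43 copies do. This does not extend to the genotype difference, in which neither Tdpoz2 probe set passed 2-fold. DKO minus WT of the dimmer Tdpoz2 probe set was -0.16 at d0 and 0.48 at d2.

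The bright probe sets of these families differed less between genotypes than Trim43c did. Trim43c was chosen for its difference and these families after their values were seen, so nothing is read from that contrast. The brighter Tdpoz2 probe set had a DKO minus WT of -0.39 at d0 and -0.37 at d2. It ranked the groups as Trim43c did, with smaller differences. Usp17ld, of a deubiquitinase family, measured 4.17 and 3.91 in WT and 4.42 and 4.30 in DKO, a difference of 0.24 and 0.39. Its copy Usp17la measured 1.67 and 3.18 in WT and 1.46 and 2.43 in DKO, higher at d2 in both genotypes, with a difference between genotypes of -0.21 and -0.75.

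**Figure D5:**
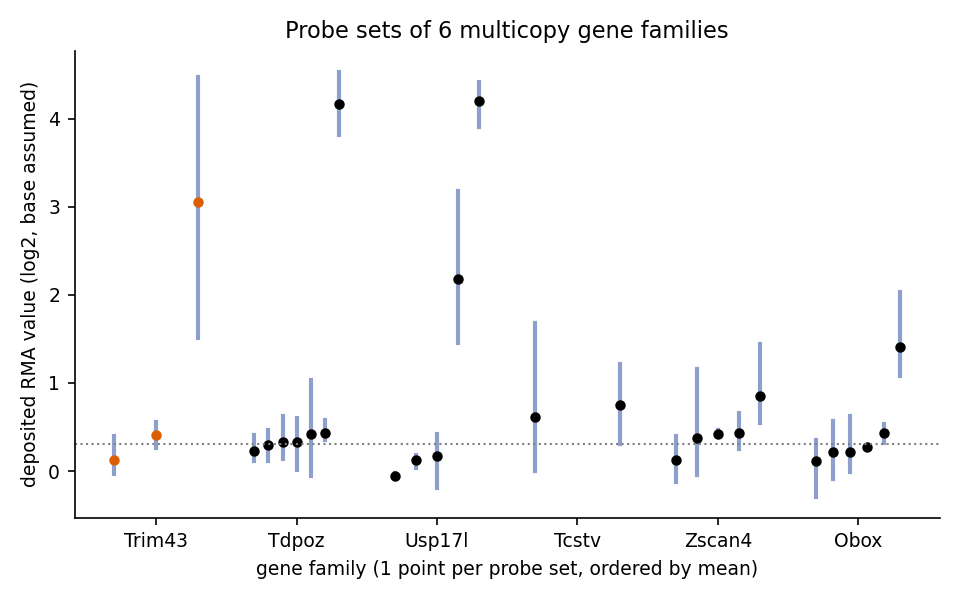
Deposited RMA values (log2, base assumed) of the probe sets of 6 multicopy gene families; points are means over the 4 arrays, bars run from the lowest to the highest array, and the dotted line is the 40th percentile of all values (0.30). The Trim43c bar, from 1.51 to 4.48, is the longest of the 28, and the bright Tdpoz and Usp17l probe sets have shorter ones. Trim43c was chosen for its difference, so nothing is read from its longer bar.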

How the data were processed

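The authors deposited a table with 1 column per array. RMA made it, according to the labels (per the submitters' processing notes), and its deposited values are taken as log2, since no base is written in it. Array design files, RMA's version and the arrays normalized together are not given in the sources used here. All 4 arrays were on strip 2. The table was used as deposited. Of 41345 probe sets 23521 had 1 gene symbol, 1814 several and 16010 none. Symbols were updated by Entrez number through RefSeq (GRCm38.p6, 23328 matched). Differences of single arrays were called at 2-fold, without tests.

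Named were the members, the 5 nearest profiles, TRIM genes and list members past 2-fold or with high means, and 3 neighbours on each side with a probe set. TRIM genes closest in protein sequence were also to be named; protein sequences were not used here. Members and lists were chosen with earlier results of these data known. Alternatives were equal medians, quantile normalization and cyclic loess (limma 3.58.1, R 4.3.3), averaged probe sets, a 1.5-fold threshold and other backgrounds. Python 3.11.15, numpy 2.4.6, pandas 2.3.3 and matplotlib 3.10.9 were used. Suz12-knockout arrays were not analysed here.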

Additional observations from a re-analysis of the deposited data

Results flagged for a closer look

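Trim43b differed between genotypes in opposite directions on the 2 days, by -0.33 at d0 and 0.11 at d2. With 1 array per group this difference between days was not tested, and 3 of its 4 values lay under 0.30.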

How the results depend on the processing

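Of 51 values of the Trim43 probe sets recomputed under another scaling, 49 kept their side of 2-fold and moved by less than the robust SD of that comparison over probe sets (0.23 to 0.34). DKO minus WT of Trim43c ran from -1.99 to -1.89 at d0 and from -2.27 to -2.15 at d2. The other 2 were those of Trim43c between days in DKO, at -1.03 with equal medians and -1.06 after quantile normalization. A 1.5-fold threshold, which changes no value, was also passed by Trim43c between days at -0.74 in WT and -0.98 in DKO. Averaging probe sets could change nothing, since each copy has 1. Quantile normalization without the DKO d2 array was added after seeing the data. The 5 nearest profiles to Trim43c were the same genes with equal medians and after quantile normalization. Counts of probe sets past 2-fold moved with the background. With a mean above 2, they were 8 higher and 8 lower (DKO minus WT, d0), 12 and 29 (d2), 6 and 4 (days in WT), 14 and 26 (days in DKO) and 17 and 37 (difference of changes). Over all probe sets they were 589 and 666, 1041 and 895, 641 and 597, 1093 and 851, and 1658 and 1463. The share past 2-fold differs between these backgrounds as well as the number counted, and the cause was not tested. The limit is 1 array per group and no measure of signal over background. No paired analysis was possible because each group holds 1 array.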
